A study of Homo sapiens with 12 samples.

Results

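LUCAT1, a long non-coding RNA of the stress response, was followed with the shorter table entry RP11-213H15.4 that lies within it and with 7 long non-coding RNAs widely studied in cancer, MALAT1, NEAT1, H19, HOTAIR, MEG3, GAS5 and PVT1. These 9 genes, of 57773 in the deposited table, were taken by name. LUCAT1 and RP11-213H15.4 were chosen from their higher counts with chaetocin than with vehicle, so that comparison is given for all 9 as a description with no test. All 9 passed the filter on low counts, as did 22831 genes in all. The cells were PANC-1, an established human line from a pancreatic carcinoma, kept below passage 30. They received DMSO vehicle, 30 nM chaetocin, 90 nM MLN8237, or 30 nM chaetocin with 90 nM MLN8237 (the combination) for 24 h, with 3 libraries in each of the 4 groups. Chaetocin is a fungal compound known to inhibit the histone methyltransferase SUV39H1 and thioredoxin reductase, and MLN8237 (alisertib) inhibits the mitotic kinase Aurora A. All groups are of 1 cell line, and nothing in the labels ties a library to its own culture. The p-values therefore reflect spread between libraries only, and that spread may be technical.

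Long non-coding RNAs are transcripts that are not translated into a known protein, and many act in the nucleus. NEAT1 is the scaffold of paraspeckles and MALAT1 is concentrated in nuclear speckles, where splicing factors gather. H19 and MEG3 are imprinted RNAs, normally transcribed from the maternal copy of loci that also hold paternally transcribed genes. HOTAIR is transcribed from the HOXC cluster, GAS5 hosts small nucleolar RNAs in its introns, and PVT1 lies beside MYC. LUCAT1 is known to be induced by NRF2, the transcription factor of the oxidative stress response.

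The libraries held 49439795 to 63747510 summed gene counts. The first principal component of log2 CPM (59.9% of the variance) separated the 6 libraries with chaetocin from the 6 without. On the second (14.6%), MLN8237 replicate 3 stood at -82.7, and the chaetocin and combination libraries numbered 3 stood at -32.2 and -28.1, against 3.31 to 34.8 for the other 9. Combination replicate 2 lay at -50.8 on the first component, nearer the chaetocin libraries (-46.4 to -37.3) than the other combination libraries (-95.3 and -89). The carcinoma markers KRT8 and KRT18 were abundant, with 2351 ± 67.3 and 1774.5 ± 182 CPM (SD, n = 3) with MLN8237, and fell to 1054 ± 99.1 and 753 ± 66.4 CPM in the combination. Of 8 epithelial and carcinoma markers, 7 fell in the combination against MLN8237 (edgeR adjusted p under 0.05), beside 22.7% of all tested genes. The summed level of the 8 was 9090 to 9700 CPM in the MLN8237 libraries and 4730 to 5830 in the combination libraries. Summed levels and vehicle levels in this paragraph lack the TMM scaling described below, which the other CPM have. VIM had the highest level of the 8, at 5131 ± 360 CPM with MLN8237 and 2844 ± 487 in the combination. CDH1, KRT7 and EPCAM stood at 10.4, 5.71 and 26.5 CPM with MLN8237. PTPRC and CD3E of immune cells, VWF and CDH5 of endothelial cells, COL1A2 and DCN of fibroblasts and PRSS1, CPA1, PNLIP and INS of the normal pancreas had 0 counts in the vehicle libraries. Other markers of these cell types were present, among them CD68 at 159.5 CPM and COL1A1 at 68.5 CPM in vehicle, with COL3A1 at 1.3, CD14 at 0.48, LYZ at 0.221, KDR at 0.124 and CELA3A at 0.0564. The summed immune list was 164 to 181 CPM with MLN8237 and 172 to 246 in the combination, and the summed fibroblast list 47.6 to 59.4 and 34 to 48.9. In the combination PTPRC rose to 0.667 ± 0.252 CPM and VWF to 3.04 ± 1.61 CPM. The part of these marker changes in the results below was not tested.

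The promoters of LUCAT1, MEG3 and H19 are shown because these 3 genes had the largest fitted changes among the genes with a window in the RefSeq promoter table (GRCh38.p14), which matched 5 of the 8 members that were looked up. Each window spans 250 bases before to 50 bases after a start site and is written in the direction of transcription. The LUCAT1 window is chr5:91314353-91314652 on the minus strand, the MEG3 window, 1 of 3 for that gene, is chr14:100825858-100826157 on the plus strand, and the H19 window is chr11:2001217-2001516 on the minus strand. Capitals mark matches to the motifs described after the sequences.
LUCAT1: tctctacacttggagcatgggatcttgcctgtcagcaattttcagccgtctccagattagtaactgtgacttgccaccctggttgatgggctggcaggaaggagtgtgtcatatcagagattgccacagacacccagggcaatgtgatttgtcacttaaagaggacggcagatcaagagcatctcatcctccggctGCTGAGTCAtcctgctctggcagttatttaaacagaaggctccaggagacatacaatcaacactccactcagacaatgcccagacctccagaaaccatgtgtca
MEG3: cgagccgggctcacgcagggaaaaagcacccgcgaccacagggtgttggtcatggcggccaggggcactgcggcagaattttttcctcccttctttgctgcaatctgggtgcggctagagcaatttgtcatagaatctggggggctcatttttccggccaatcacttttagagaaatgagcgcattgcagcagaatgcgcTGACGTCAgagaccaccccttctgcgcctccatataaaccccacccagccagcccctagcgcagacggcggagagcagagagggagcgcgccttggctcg
H19: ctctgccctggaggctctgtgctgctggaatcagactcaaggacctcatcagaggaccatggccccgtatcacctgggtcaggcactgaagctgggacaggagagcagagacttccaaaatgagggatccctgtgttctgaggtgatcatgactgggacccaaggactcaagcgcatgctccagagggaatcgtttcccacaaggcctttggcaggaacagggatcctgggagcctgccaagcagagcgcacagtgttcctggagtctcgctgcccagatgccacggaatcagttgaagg
On both strands the windows were searched for TGACNNNGC, the core of the antioxidant response element that NRF2 binds. The AP-1 site TGAGTCA and the cAMP response element TGACGTCA were added after the sequences had been read. TGACNNNGC was present in 13.3% of 35116 windows of the same length, TGAGTCA in 4.95% and TGACGTCA in 1.85%. The capitals of the LUCAT1 window are a TGACNNNGC match on the opposite strand, beginning 54 bases before the start, which overlaps a TGAGTCA match at 52 bases before it. The capitals of the MEG3 window are a TGACGTCA match 50 bases before the start. None of the 3 motifs was found in the H19 window or in that of GAS5, and the MALAT1 window held TGACNNNGC at 2 places. A match describes the letters only.

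LUCAT1 (ENSG00000248323) spans chr5:90598846-90610219 in hg19 and was scarce without chaetocin. Its TMM-scaled CPM, the share of counts scaled to a common library total, was 1.45, 0.638 and 1.16 with vehicle and 12.4, 15.2 and 18.2 with chaetocin. The MLN8237 libraries held 1.16, 0.682 and 1.32 CPM and the combination libraries 20.4, 12.3 and 25.2. Every library with chaetocin was above every library without it, and combination replicate 2 was the lowest of the 6. LUCAT1 rose 18.3-fold in the combination against MLN8237, the comparison its choice did not use (log2 fold change 4.19 ± 0.337, standard error, 95% interval 3.47 to 4.92, adjusted p = 3.26e-06 by edgeR's quasi-likelihood test). The value described for chaetocin against vehicle was 3.83 ± 0.333 on the log2 scale.

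RP11-213H15.4 (ENSG00000271762, chr5:90608874-90610219) lies wholly inside the LUCAT1 span and ends at the same base. Its CPM were 0.839, 0.438 and 0.662 with vehicle, 7.31, 8.55 and 11.3 with chaetocin, 0.79, 0.434 and 0.922 with MLN8237 and 11.8, 6.94 and 15.7 in the combination. The libraries fell in the same 2 sets as for LUCAT1. The fitted rise in the combination against MLN8237 was 4.0 ± 0.352 on the log2 scale (edgeR adjusted p = 6.35e-06). For every 100 LUCAT1 reads there were 56.1 to 70 reads of RP11-213H15.4 in the 12 libraries, with group means of 61.2 ± 6.44 for vehicle, 59 ± 2.96 for chaetocin, 67.3 ± 3.29 for MLN8237 and 59 ± 3.02 for the combination (SD, n = 3). The entries overlap on the genome and are not independent observations.

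**Figure D1:**
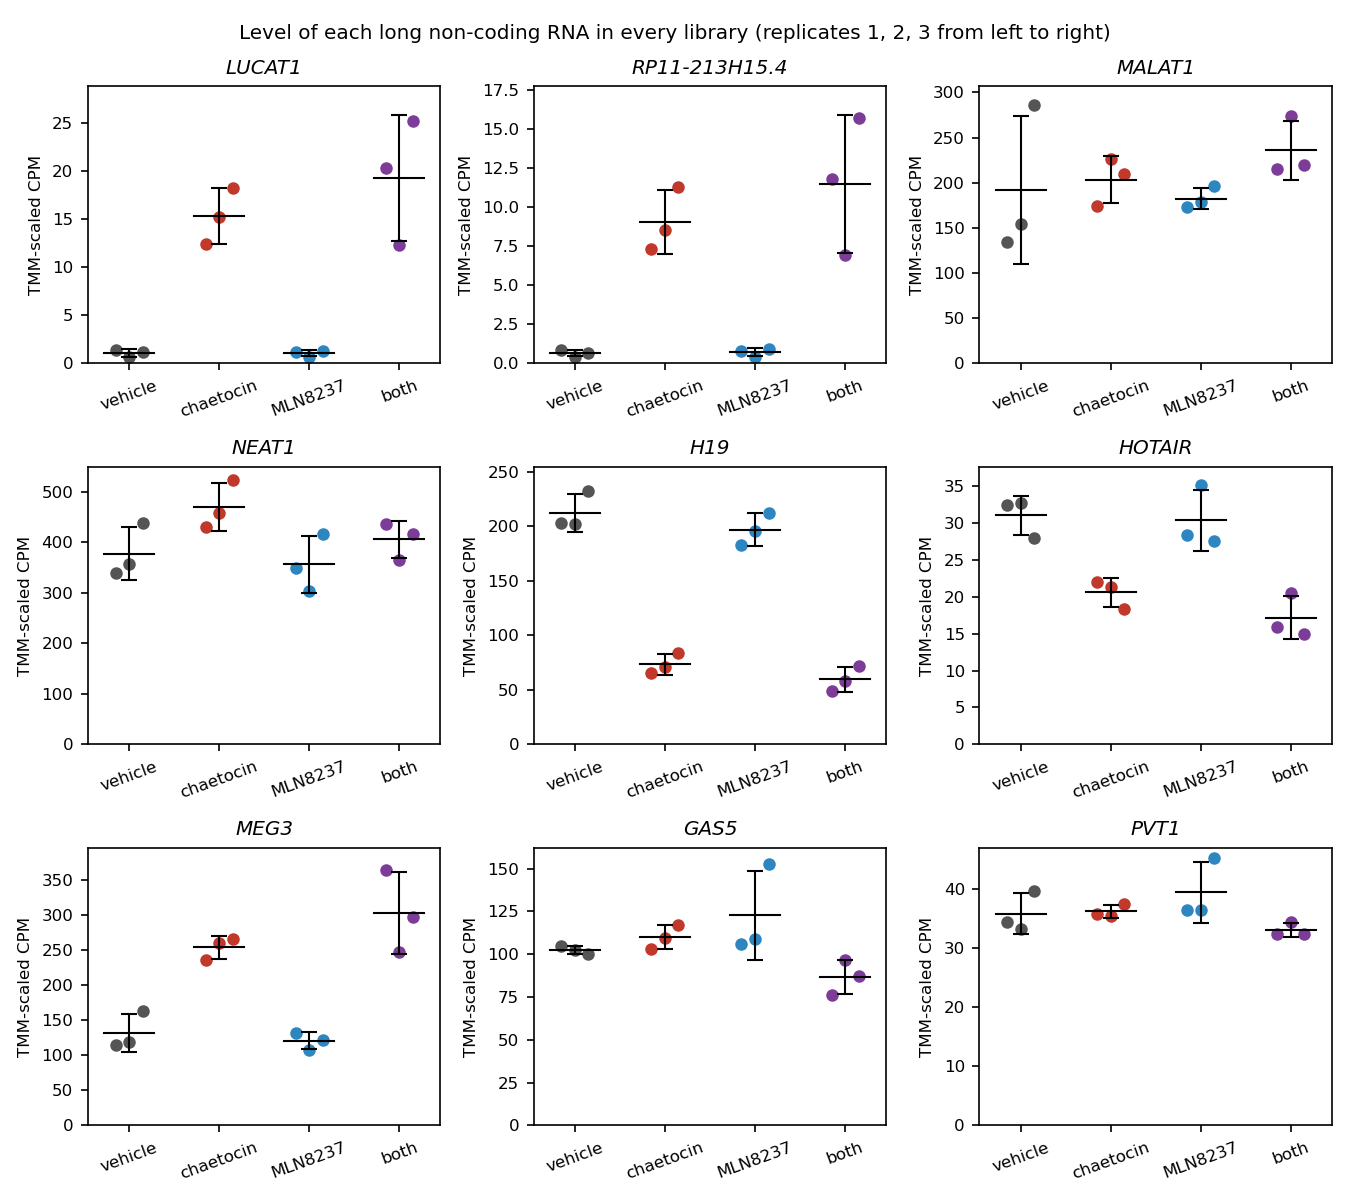
TMM-scaled CPM (vertical axes, from 0) of the 9 genes in each of the 12 libraries, as points (replicates 1 to 3 from left to right) with the group mean as a line and its SD as a bar, for vehicle, chaetocin, MLN8237 and both compounds. LUCAT1, RP11-213H15.4 and MEG3 are high and H19 and HOTAIR low in all 6 libraries with chaetocin, whereas the groups lie close together for MALAT1, NEAT1 and PVT1. For GAS5 the combination libraries lie below all others.

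In the combination against MLN8237, 6 of the 9 genes were called at an adjusted p under 0.05, beside 45.9% of all tested genes. LUCAT1, RP11-213H15.4 and MEG3 rose, beside 23.3% of all genes called higher, and H19, HOTAIR and GAS5 fell, beside 22.7% called lower. With nearly as many genes called as not, the count by itself does not set these 9 apart. Between MLN8237 and vehicle 0 of the 7 genes other than LUCAT1 and RP11-213H15.4 were called, and the background was 0.00438% (1 gene). Between the combination and chaetocin 0 of 7 were called, with a background of 0% that rested on the tool and on 1 library: over all genes DESeq2 called 299, and edgeR without combination replicate 2 called 573. At an unadjusted p under 0.05 by edgeR, 1938 and 2677 of all genes passed in these comparisons, and DESeq2 and limma-voom called 0 of the 7 in both as well.

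MEG3 (ENSG00000214548, chr14:101245747-101327368) is an imprinted RNA described as a tumour suppressor. Its CPM were 115, 118 and 163 with vehicle, 235, 259 and 266 with chaetocin, 132, 108 and 122 with MLN8237 and 364, 247 and 296 in the combination. The libraries with chaetocin did not overlap with those without. MEG3 rose 2.51-fold in the combination against MLN8237 (log2 fold change 1.33 ± 0.157, edgeR adjusted p = 4.48e-05). The described value for chaetocin against vehicle was 0.94 ± 0.155.

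H19 (ENSG00000130600, chr11:2016406-2022700) is an imprinted RNA of fetal tissue and many tumours. Its CPM were 203, 201 and 232 with vehicle, 65, 71.2 and 84 with chaetocin, 182, 196 and 212 with MLN8237 and 49.3, 57.9 and 72 in the combination. All 6 libraries with chaetocin were below all 6 without it. In the combination H19 fell to a level 3.29-fold lower than with MLN8237 (-1.72 ± 0.139 on the log2 scale, edgeR adjusted p = 3.26e-06). Chaetocin against vehicle gave -1.53 ± 0.138 as a description. H19 and MEG3, both from imprinted loci, therefore moved in opposite directions.

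HOTAIR (ENSG00000228630, chr12:54356092-54368740) is known for its link to Polycomb repression. Its CPM were 32.3, 32.7 and 27.9 with vehicle, 22, 21.3 and 18.3 with chaetocin, 28.4, 35 and 27.5 with MLN8237 and 16, 20.5 and 15 in the combination. Again no library with chaetocin reached the lowest library without it. HOTAIR fell by 0.82 ± 0.137 on the log2 scale in the combination against MLN8237 (edgeR adjusted p = 0.000441), and the described value for chaetocin against vehicle was -0.59 ± 0.136. HOTAIR overlaps HOXC11 on the opposite strand, and no source used here says whether counting was strand-specific, so reads of the pair may be mixed.

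GAS5 (ENSG00000234741, chr1:173833038-173838020) is a growth-arrest RNA. Its CPM were 105, 102 and 100 with vehicle, 103, 110 and 117 with chaetocin, 106, 109 and 153 with MLN8237 and 76.5, 96.5 and 87.5 in the combination. The combination libraries were below all others, and MLN8237 replicate 3 was the highest of the 12. GAS5 fell by 0.50 ± 0.132 on the log2 scale in the combination against MLN8237 (edgeR adjusted p = 0.00819). Without MLN8237 replicate 3 the value was -0.32 (adjusted p = 0.0138), and the call was lost when only these 2 groups were fitted (adjusted p = 0.0506). The described value for chaetocin against vehicle was 0.10 ± 0.132, and the effect of chaetocin with MLN8237 minus that without it was -0.60 ± 0.187 (edgeR adjusted p = 0.362).

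MALAT1, NEAT1 and PVT1 did not pass the test. MALAT1 (ENSG00000251562, chr11:65265233-65273940) had 135, 155 and 286 CPM with vehicle, 175, 227 and 209 with chaetocin, 173, 178 and 196 with MLN8237 and 215, 273 and 220 in the combination. The spread was widest in vehicle, where replicate 3 was the highest of all 12 libraries. The combination libraries lay above the MLN8237 libraries, but the difference of 0.37 ± 0.222 (log2, 95% interval -0.11 to 0.85) had an adjusted p of 0.187 by edgeR. Without vehicle replicate 3, which is in neither group, the difference was 0.36 and the adjusted p 0.0339.

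NEAT1 (ENSG00000245532, chr11:65190245-65213011) had 339, 357 and 438 CPM with vehicle, 430, 458 and 523 with chaetocin, 349, 305 and 416 with MLN8237 and 436, 365 and 418 in the combination. The combination and MLN8237 libraries overlapped. The difference was 0.19 ± 0.134 (log2, 95% interval -0.10 to 0.48, edgeR adjusted p = 0.267). It was 0.087 without MLN8237 replicate 2 and 0.30 without MLN8237 replicate 3 (adjusted p = 0.64 and 0.063). Without the 3 treated libraries numbered 3 it was 0.30, with an adjusted p of 0.0487.

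PVT1 (ENSG00000249859, chromosome 8, 128806779 to 129113499) varied little. Its CPM were 34.4, 33.1 and 39.7 with vehicle, 35.8, 35.3 and 37.3 with chaetocin, 36.4, 36.4 and 45.2 with MLN8237 and 32.3, 34.4 and 32.4 in the combination. MLN8237 replicate 3 was again the highest. The combination minus MLN8237 was -0.25 ± 0.103 (log2, unadjusted 95% interval -0.48 to -0.03, edgeR adjusted p = 0.0603), and -0.15 without MLN8237 replicate 3. Without vehicle replicate 3 or MLN8237 replicate 1 the adjusted p was 0.0478 or 0.0382.

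**Figure D2:**
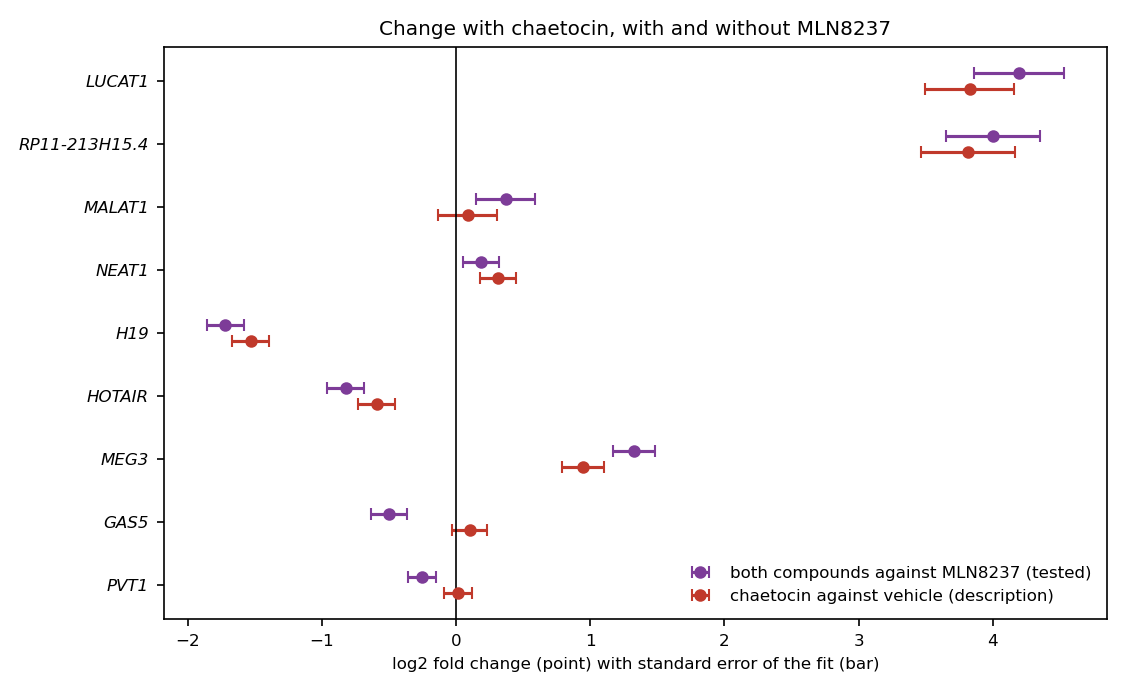
Fitted log2 fold change (points, horizontal axis) with its standard error (bars) for each gene, for chaetocin against vehicle and for the combination against MLN8237, which share no library. LUCAT1 stands at 3.83 and 4.19, H19 at -1.53 and -1.72, while GAS5 stands at 0.10 and -0.50.

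Levels between genes were compared per length, with the deposited RPKM values. The order depends on the lengths listed, which are 549 bases for RP11-213H15.4, 2904 for LUCAT1 and 22767 for NEAT1. RP11-213H15.4 lies inside LUCAT1 and had fewer reads than it in every library, although its RPKM was higher. In vehicle the order was H19 (71.5 ± 5.2 RPKM, SD, n = 3), GAS5 (26.8 ± 0.758), MALAT1 (20.8 ± 8.73), NEAT1 (15.7 ± 2.06), HOTAIR (11.3 ± 1.05), MEG3 (7.92 ± 1.54), PVT1 (6.16 ± 0.542), RP11-213H15.4 (1.11 ± 0.346) and LUCAT1 (0.353 ± 0.134). GAS5 and MALAT1, and MALAT1 and NEAT1, overlapped between libraries, and no other neighbours in the order did. H19 stood at percentile 96.9 of the tested genes in vehicle and LUCAT1 at percentile 22.8. In the combination MALAT1 (27.7 ± 3.22 RPKM) came first, followed by GAS5 (24.4 ± 2.28), H19 (21.7 ± 4.05), RP11-213H15.4 (21.5 ± 8.37), MEG3 (19.7 ± 4.25) and NEAT1 (18.3 ± 2.05), each overlapping with the next. LUCAT1 (6.82 ± 2.37), HOTAIR (6.72 ± 1.02) and PVT1 (6.15 ± 0.11) overlapped below them. LUCAT1 thus stood at percentile 66.7 of the tested genes and H19 at percentile 88.

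**Figure D3:**
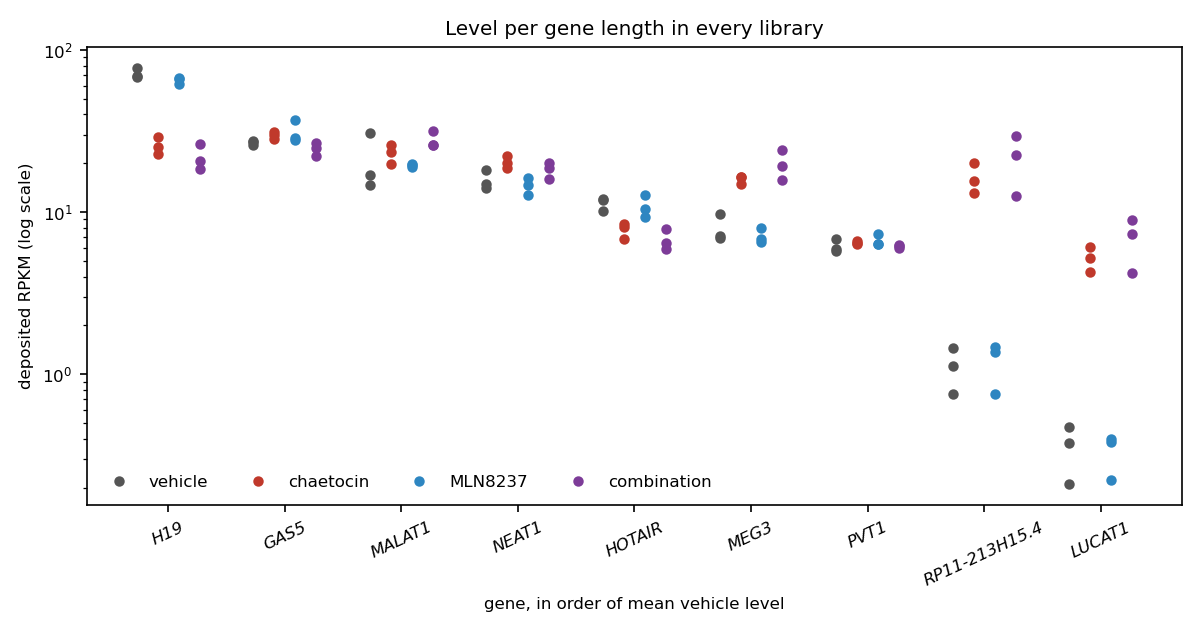
Deposited RPKM (vertical log axis) of the 9 genes in every library, with genes in order of mean vehicle level and groups by colour. H19 leads in vehicle at 71.5 RPKM and LUCAT1 is last at 0.353, whereas in the combination they stand at 21.7 and 6.82.

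Within 100000 bases of the 9 genes the table held 113 other genes, of which 60 were tested. In the combination against MLN8237, 17 of these rose and 21 fell, beside 23.3% and 22.7% of all genes. Beside LUCAT1, ARRDC3, an arrestin-family gene 54322 bases away, had 22.5, 21.1 and 23.9 CPM with MLN8237 and 93.6, 60.7 and 73.2 in the combination. The sets did not overlap, and ARRDC3 rose by 1.75 ± 0.138 on the log2 scale (edgeR adjusted p = 2.87e-06). RP11-213H15.1, the only other tested neighbour, stood at 0.0764 ± 0.0369 and 0.439 ± 0.256 CPM. It was called higher but passed the filter only because of libraries with chaetocin.

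Around HOTAIR, 16 of 19 tested neighbours fell and 0 rose, beside 22.7% lower and 23.3% higher of all tested genes. Several of the 16 overlap one another on the genome and can share reads. AC012531.23 overlaps HOXC12, RP11-834C11.14 spans HOXC5, RP11-834C11.12 spans HOXC6, and the entries of HOXC4 overlap each other. This count and that of the HOXC list are therefore not of independent genes. HOXC12, 3352 bases away, fell by 1.57 ± 0.227 on the log2 scale, HOXC11 by 0.58 ± 0.0976 and HOXC10 by 0.90 ± 0.0857. HOXC5 fell by 2.14 ± 0.223, the largest change there, from 2.74 ± 0.255 to 0.621 ± 0.135 CPM. HOXC-AS1, HOXC-AS2 and AC012531.25 did not pass. HOX genes set body position in the embryo, and the fixed HOXC list, which largely repeats these neighbours, had 12 of 14 entries lower and 0 higher, with a median log2 fold change of -0.876 against 0.0311 over all tested genes.

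Around MEG3, 6 of 9 tested neighbours rose and 0 fell, beside 23.3% higher and 22.7% lower of all tested genes. AL117190.2 and RP11-123M6.2 lie inside the MEG3 span and can share its reads. They rose by 1.33 ± 0.21 and 0.98 ± 0.232 on the log2 scale. Beyond the span, MEG8, another non-coding RNA of the cluster, rose from 1.5 ± 0.244 to 3.16 ± 1 CPM (edgeR adjusted p = 0.00829). AL132709.5 rose too. RTL1 and RP11-566J3.2 are the other 2 of the 6, at 0.0638 and 0.0146 CPM with MLN8237. They passed the filter on low counts only because of libraries with chaetocin, and their calls are no support for the count. MIR770, inside the span, had a log2 difference of -0.15 ± 0.591 (adjusted p = 0.854) at 0.158 and 0.143 CPM, and its sign changed when single libraries were left out. The imprinted neighbour DLK1 had 79 counts in all 12 libraries and was not tested.

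Near H19, MRPL23, a mitochondrial ribosomal protein gene, fell by 1.29 ± 0.22 (log2). MLN8237 replicate 3 had 121 CPM of it, against 60.4 and 65.1 in the other MLN8237 libraries, and the combination had 27.1, 38 and 36.1. IGF2, the growth factor gene imprinted together with H19, stood at 19.3 ± 4.09 CPM with MLN8237 and 14.1 ± 3.14 in the combination (edgeR adjusted p = 0.199). Around GAS5, CENPL, ZBTB37 and RC3H1 rose. ZBTB37 overlaps GAS5 and rose by 0.79 ± 0.164, opposite to it. SNORD78, within GAS5, had a log2 difference of 0.26 ± 0.318 (adjusted p = 0.529), and GAS5-AS1 one of -0.67 ± 0.284 (adjusted p = 0.0704). That of GAS5-AS1 was -0.25 without MLN8237 replicate 3 (adjusted p = 0.39) and -0.90 without MLN8237 replicate 1 (adjusted p = 0.0199), and DESeq2 gave an adjusted p of 0.0481. That of SNORD78 was 0.056 without combination replicate 2 and 0.47 without combination replicate 3.

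MALAT1 and NEAT1 lie 52222 bases apart and share neighbours. Those that rose included FRMD8, AP000769.1, SLC25A45 and MAP3K11, with FRMD8 higher by 0.49 ± 0.0988 and SLC25A45 by 0.84 ± 0.143 on the log2 scale. TIGD3 and AP001362.1 fell. The call of MAP3K11 was lost without combination replicate 1 or 3, chaetocin replicate 2, vehicle replicate 2 or MLN8237 replicate 3. That of AP001362.1 was lost without combination replicate 1 or MLN8237 replicate 3, and its log2 fold change of -0.93 was -0.44 without the latter. Beside PVT1, MYC stood at 89.2 ± 3.65 CPM with MLN8237 and 78.1 ± 7.96 in the combination (log2 difference -0.19 ± 0.0877, edgeR adjusted p = 0.0898). That adjusted p was 0.0291 without combination replicate 2 and 0.0421 without MLN8237 replicate 3. RNU4-25P within PVT1 fell. CASC11, at 0.122 ± 0.0383 and 0.524 ± 0.136 CPM, was called higher and passed the filter only because of libraries with chaetocin.

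**Figure D4:**
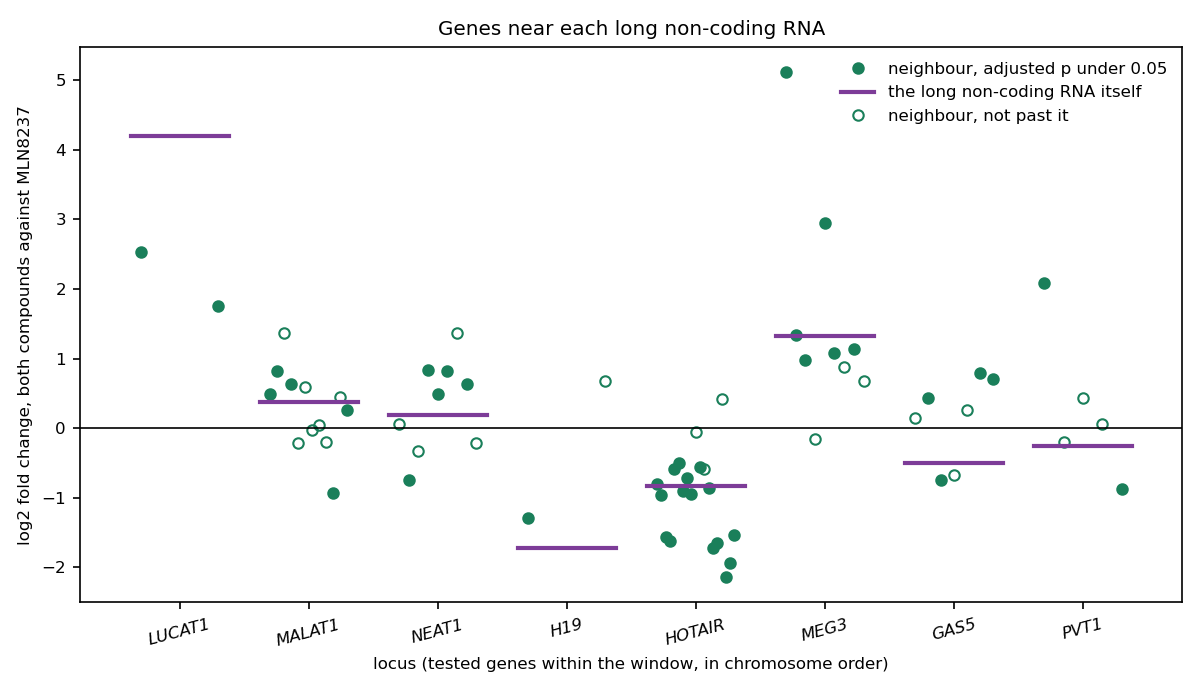
Fitted log2 fold change of the combination against MLN8237 (vertical axis) for the tested genes within 100000 bases of each long non-coding RNA, in chromosome order, with filled points for an adjusted p under 0.05 and a line for the RNA itself. At HOTAIR 16 of 19 neighbours are below 0 and called, and at MEG3 6 of 9 are above 0 and called. Several of the 16 overlap one another on the genome and can share reads. Of all tested genes 22.7% were called lower and 23.3% higher. Among the 6 at MEG3, RTL1 and RP11-566J3.2 passed the filter on low counts only because of libraries with chaetocin.

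Other genes of the pathways were counted in the combination against MLN8237 from lists given by name. Among other cancer-related long non-coding RNAs, 13 of 31 tested rose and 6 fell (median log2 fold change 0.322), beside 23.3% higher and 22.7% lower of all tested genes. Of the 13, HIF1A-AS2, UCA1 and MIAT stood at 0.0123, 0.0284 and 0.107 CPM with MLN8237. They passed the filter only because of libraries with chaetocin, and their calls are no support for the count. MIR22HG, the host of miR-22, rose from 23.5 ± 3.07 to 72.7 ± 20.7 CPM, and MIR31HG, the host of miR-31, from 1.6 ± 0.35 to 5.28 ± 1.32. LINC00261 fell from 17.2 ± 1.15 to 6.67 ± 1.64 CPM and JPX from 31.3 ± 2.82 to 18.4 ± 2.58. Of 31 tested NRF2 target genes 21 rose and 0 fell (median 0.877), and in chaetocin against vehicle 24 were higher and 0 lower, beside 12.6% and 11.9% of all genes. AKR1B10, AKR1C1 and AKR1C3, among the 21, stood at 0, 0.0426 and 0.0789 CPM with MLN8237. These genes passed the filter on low counts only because of libraries with chaetocin, so they are no support for the counts. GCLM and GCLC, which encode the subunits of the glutathione synthesis enzyme, rose by 1.60 ± 0.0797 and 1.80 ± 0.108 on the log2 scale, ABCC2, an efflux transporter gene, by 3.21 ± 0.231 and OSGIN1 by 2.51 ± 0.212. NFE2L2, which encodes NRF2 itself, had a log2 difference of -0.03 ± 0.077 (edgeR adjusted p = 0.766).

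Of the snoRNA host genes, the class to which GAS5 belongs, 7 of 17 tested fell and 0 rose (median log2 fold change -0.335), beside 22.7% lower and 23.3% higher of all genes. Their summed level, in CPM not scaled by TMM, was 880 to 933 with vehicle and 970 to 1060 with chaetocin. It was 905 to 1230 with MLN8237 and 875 to 980 in the combination. On that scale the MLN8237 range was the widest and overlapped each of the others, and the chaetocin range lay above that of vehicle. The CPM of single genes that follow are TMM-scaled. SNHG3 fell from 82.4 ± 18.6 to 48.7 ± 3.76 CPM, SNHG11 from 9.38 ± 2.71 to 5.48 ± 0.573, SNHG12 from 26.7 ± 4.02 to 19.9 ± 1.5 and SNHG1 from 105 ± 7.13 to 85.8 ± 4.28. In chaetocin against vehicle 3 of the 17 were higher and 0 lower, beside 12.6% and 11.9% of all genes. Genes of paraspeckle proteins, the partners of NEAT1, fell in 9 of 17 and rose in 2 (median -0.227), with HNRNPK, TAF15, DAZAP1 and MATR3 lower by 0.38 to 0.51 on the log2 scale. SFPQ, a core paraspeckle protein gene, had a difference of -0.03 ± 0.0779 (adjusted p = 0.795). Of 18 nuclear speckle and splicing factor genes 5 fell, SRSF6, SRSF2, SRSF3 and SRSF7 among them, and 0 rose (median -0.0513). The share lower was near the 22.7% of all genes. These counts rested in part on 1 library: without combination replicate 1 they were 4, 5 and 2 genes lower for the 3 lists, and with only the 2 groups fitted 2, 3 and 1.

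Of 19 tested imprinted genes 7 rose and 3 fell (median log2 fold change 0.22), beside 23.3% higher and 22.7% lower of all genes. RTL1, among the 7, passed the filter only because of libraries with chaetocin, and its call is no support for the count. MEST fell from 93.1 ± 6.25 to 31.8 ± 5.35 CPM and SNRPN from 88.2 ± 22.6 to 40.7 ± 5.76, whereas ZDBF2 rose from 3.53 ± 0.737 to 12.3 ± 3.65 and KCNQ1OT1, an imprinted long non-coding RNA, from 5.51 ± 0.742 to 12.6 ± 2.38. CDKN1C, which lies in the same imprinted region as KCNQ1OT1, stood at 2.71 ± 0.645 and 3.15 ± 0.604 CPM (edgeR adjusted p = 0.477).

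Genes with the most similar pattern were ranked by Pearson's r of log2 CPM over the 12 libraries, given as a description. The libraries form 2 sets, with and without chaetocin, which a high r largely reflects for the genes that differ between them. For LUCAT1 the closest were SPOCD1 (r = 0.992), HTR1D (0.991), AC097662.2, AGPAT9 and RP11-890B15.2 (each 0.99), outside the LUCAT1 locus. SPOCD1, AC097662.2 and RP11-890B15.2 reached the required mean of 1 CPM only through libraries with chaetocin. RP11-890B15.2 stood at 0.0259 CPM with vehicle and 0.0293 with MLN8237. SPOCD1 stood at 0.822 CPM with MLN8237 and 12.2 in the combination, and AGPAT9 at 39.5 and 98.6. The closest to MEG3 were C2CD2 (0.995) and NPTX1 (0.994), to H19 OPTN (0.993) and EEFSEC (0.992), and to HOTAIR C8orf37 and GBAS (both 0.988). For GAS5 they were ORAOV1 (0.983) and TSEN54 (0.981), for PVT1 C7orf49 (0.964) and AK5 (0.92), for NEAT1 TONSL (0.926) and NRG4 (0.916), and for MALAT1 AGAP5 (0.826) and KMT2D (0.822). Among the 9 genes, LUCAT1 correlated with MEG3 at 0.96 and with H19 at -0.947, and GAS5 with PVT1 at 0.848, in the same libraries.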

How the data were processed

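RNA sequencing of 12 PANC-1 libraries (4 groups of 3) was analysed. For each library the deposited table gives, per the file headers, raw counts and RPKM by gene, and it lists positions and lengths of genes. The submitters' processing notes name CASAVA 1.9, TopHat 12.0.6 (printed as it stands), HTSeq and hg19, with no roles. Positions were read as hg19, and the strand setting of the counting was not stated. The treatment label of the combination samples misspells MLN8237 by 1 digit.

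The deposited counts were tested in R 4.3.3 with edgeR 4.0.16. The 22831 of 57773 genes that passed edgeR's default filter were scaled by TMM and fitted with 4 group means over all 12 libraries. The robust quasi-likelihood F test was used, with Benjamini-Hochberg adjustment over all tested genes and calls at an adjusted p under 0.05. The script was tested on simulated data. The common biological coefficient of variation was 0.155. CPM are given as mean ± SD and fold changes with the standard error of the fit. CPM are TMM-scaled, except the summed levels of lists and the vehicle levels of cell type markers. RPKM served only for levels between genes. Replicates differed by more than sampling noise, with a chi-square of 5.354 to 113.8 per gene.

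The genes and lists were chosen with earlier results of these data known. Named genes were the 9 genes, tested neighbours within 100000 bases (some are not reported here), the 5 genes most correlated with LUCAT1 and 2 with each other gene (mean of at least 1 CPM, prior count 2), and 4 genes of each list with the smallest p. IGF2, DLK1, CDKN1C, SFPQ, NFE2L2 and the cell type markers printed were singled out from their lists after their values were seen. Alternatives were RLE scaling, no filter, a filter of 1 CPM in 6 libraries, DESeq2 1.42.0, limma-voom (limma 3.58.1), a fit of just 2 groups, a block for replicate number, a further threshold of 1 on the absolute log2 fold change, and libraries left out. GENCODE 29 gave strand only, and promoter sequences are from RefSeq (GRCh38.p14). The PVT1 promoter was not analysed here.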

Additional observations from a re-analysis of the deposited data

How the results depend on the processing

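In the combination against MLN8237, LUCAT1 kept its call in all 21 alternatives (log2 fold change 3.95 to 4.43), as did RP11-213H15.4, H19 and MEG3. Of the 9 genes, 6 to 8 were called when single libraries were left out, and 0 of 7 were called in the other 2 comparisons in every alternative. Adding an absolute log2 fold change of 1 left 4 of the 9 (without HOTAIR and GAS5), 4 imprinted genes higher, 4 HOXC genes lower, and 0 snoRNA host, 0 paraspeckle and 0 speckle genes lower, by the construction of that threshold. With only the 2 groups fitted, 2 snoRNA host, 3 paraspeckle and 1 speckle genes were lower, and the stricter filter gave 5 paraspeckle genes. Leaving out single libraries gave 4 to 9 snoRNA host, 5 to 10 paraspeckle and 2 to 6 speckle genes lower. The cause was not tested.

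Signs changed only for differences that did not pass the test. For MLN8237 against vehicle, MALAT1 was 0.0065 with limma-voom and -0.27 to 0.33 over the left-out libraries, NEAT1 -0.21 to 0.030, HOTAIR -0.15 to 0.032, and MEG3 -0.22 to 0.045. Without the 3 treated libraries numbered 3, HOTAIR was 0.034. For the combination against MLN8237, NFE2L2 was 0.043 and SFPQ 0.045 with the stricter filter. Over the left-out libraries SFPQ was -0.064 to 0.010 and MIR770 -0.52 to 0.41 (0.18 without combination replicate 3). Without the treated libraries numbered 3 they were 0.040 and 0.16. Of 62 other named genes that were called, 53 kept the call in every alternative in which they were tested, leaving aside the added fold threshold. RP11-213H15.1, CASC11, RTL1 and RP11-566J3.2, among the 53, did not pass the stricter filter and have no value there.

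The replicate numbers were not taken to pair the libraries in the main fit. Deviations of same-numbered libraries correlated from -0.153 to 0.462 (18 pairs, median 0.106). Those of libraries with different numbers correlated from -0.417 to 0.267 (36 pairs, median -0.075). Of 12 libraries 6 correlated best with their own number, among them every library numbered 3. The treated libraries numbered 3 correlated with each other at 0.436 to 0.462. What these libraries share was not tested. With the replicate block, 11768 genes were called in the combination against MLN8237, against 10487 without it, and 7 of the 9 genes, PVT1 being added (adjusted p = 0.036). IGF2 (adjusted p = 0.00818) and GAS5-AS1 (0.0182) also passed with the block. With 3 libraries a group, the standard errors were 0.222 (MALAT1), 0.134 (NEAT1) and 0.103 (PVT1) on the log2 scale.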
